A study of Mus musculus with 2 samples.

Results

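The region described here is the stretch of mouse chromosome 17 from 45 to 65 Mb (mm9) that surrounds Uhrf1, the gene altered in the knockin (KI) mice of this study. Its members were all cytosines of CpGs listed there in either of the 2 libraries, the 2 strands counted separately, and they numbered 86,437 of 9,223,013 in the series. The KI library came from livers of male mice, 3 months old, with the Uhrf1 YP187/188AA change, and the WT library from wild-type males of the same age. In each, DNA of 3 mice was pooled, so there is 1 library per genotype and no spread between animals, and each test compares the 2 libraries only. Both are labelled C57BL/6, the study's methods call the strain C57BL/C, and the KI sample's genotype field reads knock out where its title reads KI. The study describes the pooled animals as 3 pairs of WT and KI littermates. It names homozygous KI mice for its other measurements of global methylation and does not restate the zygosity for these pools. As the methods state, the change was introduced into R1 embryonic stem cells derived from 129/SV mice, with a vector holding exon 3 to exon 11 of Uhrf1 and a Neo cassette between FRT sites in the intron that follows exon 3. How many generations of crossing followed was not given in the sources used here.

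UHRF1 binds hemimethylated CpGs through its SRA domain during DNA replication and brings the maintenance methyltransferase DNMT1 to them. Its tandem Tudor domain binds histone H3 methylated at lysine 9, and the YP187/188AA change removes that binding. Reduced representation bisulfite sequencing (RRBS) cuts DNA with MspI at CCGG, keeps short fragments and reads a cytosine that bisulfite left unconverted as methylated. A fragment is therefore seen only where the sample's own DNA carries CCGG at both ends, and a thymine in the DNA is read in the same way as an unmethylated cytosine. A difference in DNA sequence between the libraries and a difference in methylation cannot be told apart at a single CpG in these tables.

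The altered codons, 187 and 188, lie in exon 5 of 17 of the annotated transcript. They are the capitals in the mm9 plus strand at chr17:56451448-56451513, shown because the region is centred on this gene.
Uhrf1 codons 187 and 188: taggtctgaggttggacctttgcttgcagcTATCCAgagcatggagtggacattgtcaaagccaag
The nearest CpG cytosine listed in either library lay 828 bases away, with 0 reads in KI and 2 in WT, so no listed CpG lies next to the mutation.

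Fragments between MspI cuts that were read in KI and had no read in WT are shown next, to set beside those missing from KI. They were often long in the reference sequence. The reads covered only a part of them, and the part is shown with the CpGs read at least 20 times in KI in capitals. The windows are chr17:46756060-46756272, in an intron of Ptk7, and chr17:48147579-48147735, between genes.
KI-only window in Ptk7: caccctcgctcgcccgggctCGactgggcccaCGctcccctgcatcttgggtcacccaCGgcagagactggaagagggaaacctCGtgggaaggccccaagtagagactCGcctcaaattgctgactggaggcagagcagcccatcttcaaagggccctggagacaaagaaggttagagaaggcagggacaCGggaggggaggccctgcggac
KI-only window near 1700067P10Rik: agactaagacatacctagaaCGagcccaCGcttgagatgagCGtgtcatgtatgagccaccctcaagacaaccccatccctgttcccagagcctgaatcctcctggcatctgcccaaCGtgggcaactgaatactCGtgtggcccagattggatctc
The 6 cytosines of the Ptk7 window, inside a reference fragment of 954 bases, had 75 to 76 reads in KI at 73.3% methylation and were not listed in WT. The last of them lay 779 bases before the fragment's end. The 9 cytosines of the second window, in a fragment of 467 bases, had 31 to 88 reads in KI and 76.5% methylation. Another fragment of this kind covered 93 bases of a Crb3 UTR, where 16 cytosines had 20 to 46 reads in KI and 0% methylation.

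In the other direction, the sequences shown are the 3 MspI fragments with the most reads among those that were read in WT and had no read in KI at any listed CpG between the cuts. The CCGG sites at the ends are in capitals. They lie at chr17:55348081-55348248 (between genes, nearest St6gal2), chr17:55585292-55585466 (St6gal2 intron) and chr17:56787975-56788128 (Tmem146 intron).
WT-only fragment near St6gal2: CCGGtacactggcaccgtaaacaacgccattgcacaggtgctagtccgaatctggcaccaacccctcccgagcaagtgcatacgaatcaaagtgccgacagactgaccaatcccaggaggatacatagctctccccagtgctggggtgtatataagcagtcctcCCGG
WT-only fragment in St6gal2: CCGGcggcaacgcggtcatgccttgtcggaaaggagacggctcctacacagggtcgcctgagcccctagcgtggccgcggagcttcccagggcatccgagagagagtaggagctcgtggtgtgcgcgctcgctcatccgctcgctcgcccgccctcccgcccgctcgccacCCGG
WT-only fragment in Tmem146: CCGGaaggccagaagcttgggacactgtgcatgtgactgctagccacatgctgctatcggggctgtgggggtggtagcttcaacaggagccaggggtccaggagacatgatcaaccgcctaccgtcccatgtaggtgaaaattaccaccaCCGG
Coverage summed over the CpGs of the fragment near St6gal2 was 0 in KI and 1670 in WT, with a WT level of 88.9%. For the fragment in St6gal2 it was 0 in KI and 1311 in WT, and the 42 cytosines were almost unmethylated in WT, at 0.992%. For the fragment in Tmem146, which encodes a subunit of the sperm CatSper channel, it was 0 in KI and 799 in WT, with a WT level of 85.6%. The missing fragments thus included both methylated and unmethylated DNA.

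The first question was where CpGs were read in 1 library only. The members had been selected on these values, so they are given as a description. In the region, 159 CpGs had at least 20 reads in KI and were not listed in WT (KI-only), 0.881% of the 18,038 with at least 20 reads in KI (95% exact Clopper-Pearson interval 0.750 to 1.03). In the other direction, 323 had at least 20 reads in WT and were not listed in KI (WT-only), 1.74% of 18,520 (1.56 to 1.94). Over the whole series these shares were 0.0892% for KI-only and 0.0435% for WT-only, and of the 1680 KI-only CpGs of the series 159 lay here, against 127 on the rest of chromosome 17 and 1375 on the other autosomes. Of the 801 WT-only CpGs 323 lay here, against 6 on the rest of chromosome 17 and 471 on the other autosomes. The KI-only CpGs had 20 to 171 reads, with a median of 46, and the WT-only CpGs 20 to 450, with a median of 45. Just inside the read limit, at 20 to 24 reads, 25 of 1839 CpGs of KI were absent from WT and 15 of 1584 of WT from KI. Just outside it, at 15 to 19 reads, the counts were 18 of 2137 for KI and 27 of 2132 for WT. Intervals and limits of this kind cover counting error only, as PCR copies of a molecule were not marked by identifiers and count as separate reads. They also treat each cytosine as independent. Grouped where neighbours of 1 kind lay at most 300 bases apart, the KI-only CpGs formed 44 clusters and the WT-only CpGs 49. The intervals and limits for these shares are therefore too narrow.

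The 2 kinds of CpGs were unevenly spread along the chromosome. From 45 to 51 Mb there were 121 KI-only CpGs and 0 WT-only CpGs, where a count of 0 among 9908 allows a share of up to 0.0303% if the limit is set at 3 counts, and of up to 0.0372% by the exact interval. No one-sided CpG was found over the next 2.77 Mb, from the KI-only CpG at 50,877,349 to the first one at 53,645,809. From 53.5 to 59 Mb, the stretch that holds Uhrf1, there were 36 KI-only and 256 WT-only CpGs, or 0.664% and 4.52% of those read in each library. From 59 to 62.5 Mb there were 0 of either kind, and from 62.5 to 64 Mb there were 2 KI-only and 67 WT-only CpGs, the WT-only ones 10.7% of 628. From 64 to 65 Mb and from 65 to 68 Mb both counts were 0. One-sided CpGs did not end there: 15 KI-only CpGs lay from 41 to 45 Mb, and others lay beyond 68 Mb. The borders of these stretches were set from the counts, so no test was made between them.

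**Figure D1:**
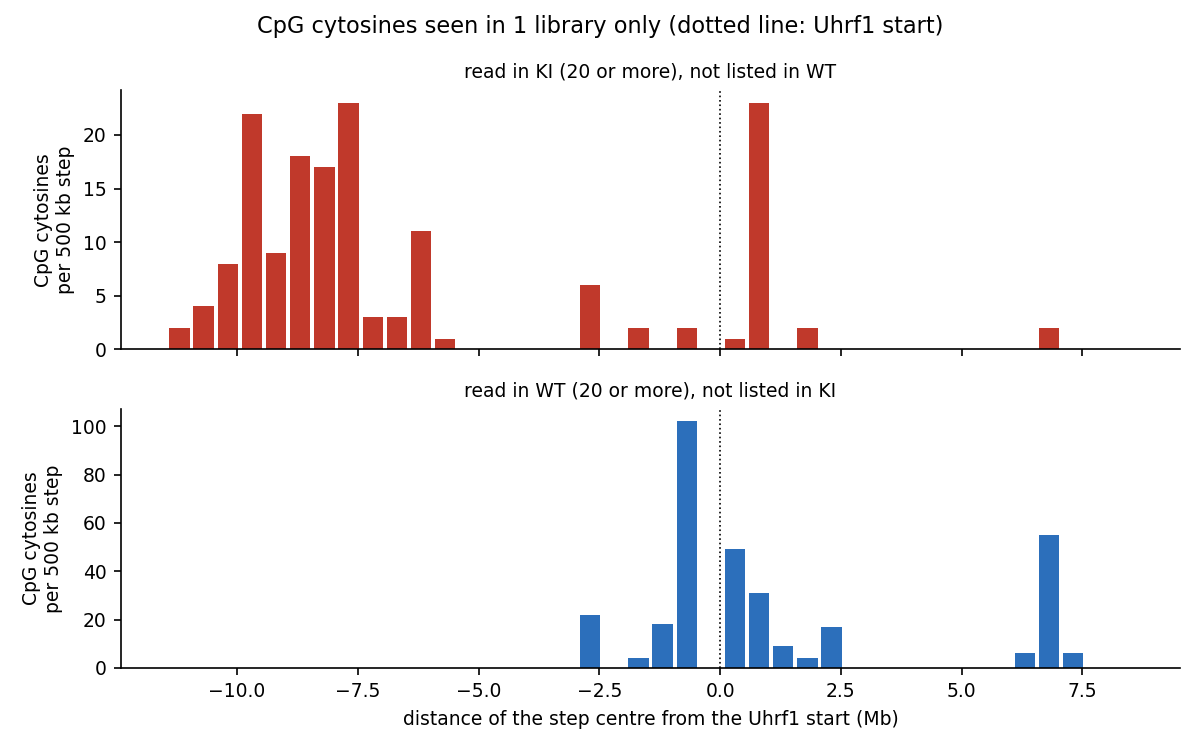
Number of CpG cytosines read in 1 library only, in 500 kb steps from 45 to 65 Mb of chromosome 17, by distance in Mb of the step's centre from the Uhrf1 start, for KI-only (upper panel) and WT-only CpGs (lower panel, on its own scale). KI-only CpGs, 159 in all, lie mostly on the left, where there are 0 WT-only CpGs, and the 323 WT-only CpGs lie in 2 groups, 1 on both sides of the gene and 1 on the right.

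Edges were then placed in 500 kb steps. A step was marked where its share of one-sided CpGs, among those with at least 20 reads in either library, exceeded the 99th percentile of 4590 steps of the other autosomes, which was 3.19%. Of the 40 steps of the region 12 were marked, against 4 of 145 on the rest of chromosome 17. These 4 were 43 to 43.5 Mb (12 KI-only CpGs), 68.5 to 69 Mb (10 KI-only), 79.5 to 80 Mb (36 KI-only) and 94.5 to 95 Mb (6 WT-only). On the other autosomes 46 steps were marked, a number set by the percentile itself, and 4397 had no one-sided CpG. Single unmarked steps between marked ones were bridged, which gave 4 runs, 48.5 to 49 Mb, 53.5 to 56 Mb, 57 to 59 Mb and 62.5 to 64 Mb. The second run bridged the step from 54 to 54.5 Mb, which had 0 one-sided CpGs. None of them held Uhrf1, so by this rule the length of the run around the gene was 0 Mb. The step with Uhrf1, 56 to 56.5 Mb, had 0 one-sided CpGs among 1690, and the step after it lay just under the limit at 3.12%, where the last marked step, 63.5 to 64 Mb, lay just above it at 3.53%. With steps of 1 Mb a run from 53 to 59 Mb held Uhrf1, and with a minimum of 50 reads, the 95th percentile, or WT-only CpGs alone (chosen after seeing the data) a run from 53.5 to 59 Mb. In each of these the step with Uhrf1 was itself unmarked and was part of the run only because it was bridged. The step from 55.5 to 56 Mb had the highest share of the 40, 23.5%, with 2 KI-only and 102 WT-only CpGs. A step on chromosome 12 had a higher share, 35.3%.

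Uhrf1 therefore lay in a gap of the pattern. The last WT-only CpG before the gene was at 55,734,095, 709 kb before its start, and the first after it at 56,581,908, 119 kb past its end, in an intron of Ptprs. In these 848 kb 2038 CpGs had at least 20 reads in KI and 1860 in WT, and 0 were one-sided. The gene itself (chr17:56442744-56462909, plus strand) had 164 such CpGs in KI and 140 in WT, and its coverage over shared CpGs, scaled by the total of each library, was 1.20 times as high in KI. At the interval of the targeting vector, exon 3 to exon 11, 12 shared CpGs had a scaled coverage ratio of 0.930, and the intron between exons 3 and 4 held 0 shared CpGs. The intron that had received the cassette could therefore not be compared.

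A second measure was partial depletion, where a CpG with at least 20 reads in 1 library had reads in the other but under 0.25 times as many after scaling by summed coverage. In the region 608 CpGs were depleted in KI, 3.28% of those read in WT, against 0.693% on the rest of chromosome 17 and 0.124% on the other autosomes. Depleted in WT were 248, 1.37% of those read in KI, against 0.727% on the rest of chromosome 17 and 0.599% on the other autosomes. CpGs depleted in KI extended further left than the WT-only CpGs. Of those read in WT, 60 from 41 to 45 Mb were depleted in KI (2.62%), 278 from 45 to 51 Mb (2.81%) and 55 from 51 to 53.5 Mb (6.11%). In the step from 51 to 51.5 Mb they were 34 of 105. From 53.5 to 59 Mb there were 220 (3.89%), from 62.5 to 64 Mb 55 (8.76%), and from 59 to 62.5 Mb and from 64 to 65 Mb 0.

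The depletion was of a different depth on the 2 sides of 53.5 Mb. The border was set at the first step of the region with a WT-only CpG, so a count of 0 absent from KI to its left follows from that choice. The medians of depth below rest on the same read counts as the border, so they are a description and were not tested. From 45 to 53.5 Mb, 0 CpGs of WT were absent from KI and the 333 depleted ones kept a median of 0.198 of the scaled WT depth. From 53.5 to 64 Mb, 323 were absent and the 275 depleted ones kept a median of 0.0418. On the other autosomes the depleted CpGs kept a median of 0.191. In the other direction, from 45 to 53.5 Mb, 121 CpGs of KI were absent from WT and the 153 depleted in WT kept a median of 0.0828 of the scaled KI depth. The limit of 0.25 bounds all these medians from above.

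**Figure D2:**
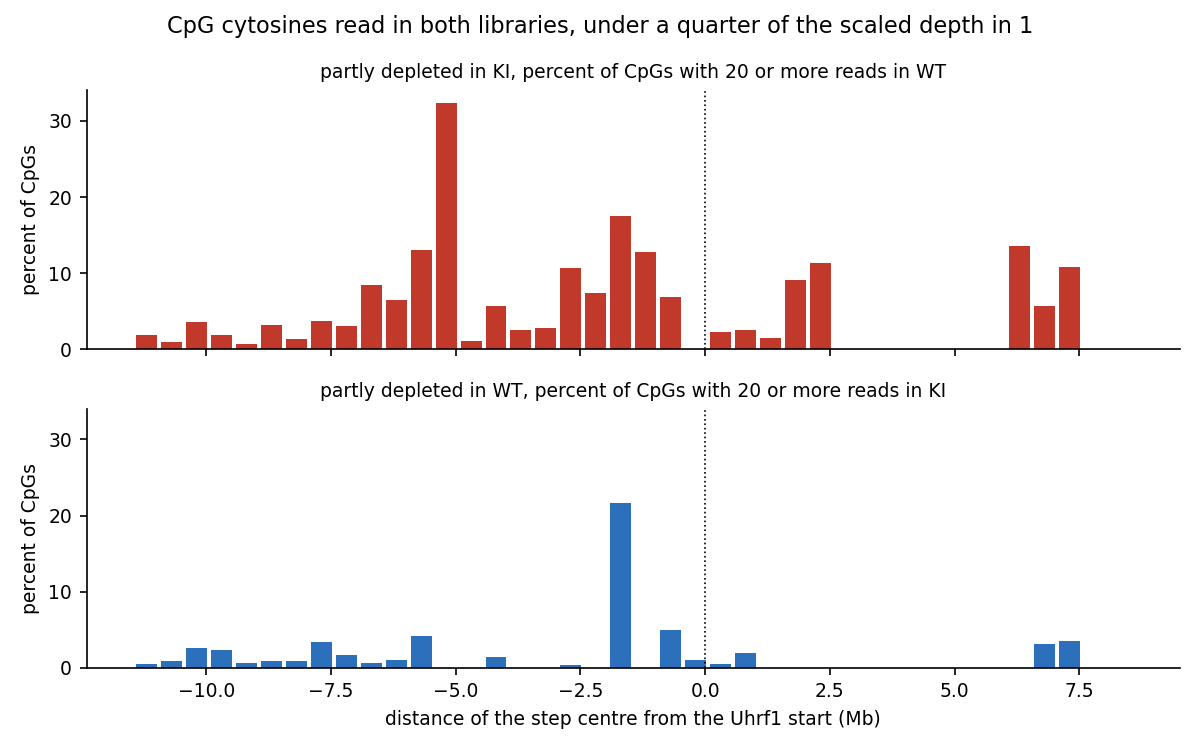
Share of CpGs partly depleted in KI, in percent of CpGs with at least 20 reads in WT (upper panel), and partly depleted in WT, in percent of those with at least 20 reads in KI (lower panel), per 500 kb step, by distance in Mb from the Uhrf1 start. In KI 608 CpGs are depleted and in WT 248, and the steps from 59 to 62.5 Mb and from 64 to 65 Mb have 0 of both.

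Methylation of the CpGs read in both libraries was not used to choose the members. Those with at least 5 reads in both, 25,343, averaged 44.8% in KI and 47.7% in WT, a change of -2.84 points (95% counting interval -2.94 to -2.74). The rest of chromosome 17 changed by -2.71 points and the other autosomes by -2.90 points, so the mean of the region lay close to both. Within it the means differed between stretches. The step with Uhrf1 changed by -1.15 points (29.9% in KI and 31.1% in WT) and the stretch from 59 to 62.5 Mb by -6.50 points (60.4% in KI and 66.9% in WT). Such differences were not particular to the region. On the rest of chromosome 17 the step from 19.5 to 20 Mb changed by -16.0 points and that from 84.5 to 85 Mb by -0.336 points.

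Single CpGs were called by Fisher's exact test (two-sided) on methylated and unmethylated reads, at a Benjamini-Hochberg adjusted p under 0.05 over all shared CpGs of the series and a difference above 25 points. In the region 337 CpGs were lower in KI, 1.33% of those shared, against 1.09% in the whole series. Higher in KI were 48, or 0.189%, against 0.0474%. Of these 48, 26 lay within 1 kb of the Ptk7 start. The share of lower calls was thus near the background, and about the same on the rest of chromosome 17, 1.10%.

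A small set of CpGs was highly methylated in WT and had almost no methylated read in KI. Over 70% in WT and at most 2% in KI, with at least 20 reads in both, were 16 CpGs of the region, or 0.197% of the 8140 over 70% in WT. In the whole series they were 16 of 830,540, or 0.00193%, so that all 16 lay here, between 53.5 and 64 Mb, and 0 elsewhere. The reverse, at most 2% in WT and over 70% in KI, was found at 0 CpGs here and at 4 in the series, all on other autosomes. In KI 11 of the 16 had 0 methylated reads, and the 16 together had 5 methylated among 1426. In WT they ranged from 70.7% to 99.03%, and the largest adjusted p of Fisher's exact test among them was 1.03e-08. The limits on level and reads that chose these CpGs already make this p small, so it is no separate support. The 16 formed 10 CpG pairs, of which 6 met the limits on both strands, and 0 lay inside a CCGG site.

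The 6 pairs with the most reads are shown with 20 bases on each side, the CpG in capitals, on the mm9 plus strand. They lie at chr17:54691558-54691599 (between genes, nearest Gm17474), chr17:55733998-55734039 (Vmn2r118 intron), chr17:57111956-57111997 (Acer1 intron), chr17:58903571-58903612 (between genes, nearest 2610034M16Rik), chr17:63006952-63006993 (Efna5 intron) and chr17:55826519-55826560 (Pot1b intron).
Near Gm17474: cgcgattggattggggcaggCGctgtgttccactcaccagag
Vmn2r118: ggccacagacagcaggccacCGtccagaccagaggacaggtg
Acer1: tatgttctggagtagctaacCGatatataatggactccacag
Near 2610034M16Rik: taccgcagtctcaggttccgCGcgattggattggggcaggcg
Efna5: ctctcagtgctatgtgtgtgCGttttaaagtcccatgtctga
Pot1b: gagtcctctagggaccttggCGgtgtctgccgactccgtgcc
The windows near Gm17474 and near 2610034M16Rik share a run of 22 bases, the longest among the 45 comparisons of the 10 windows, and the next longest run is 8. Reads from such similar copies could be placed at the wrong one, which was not tested.

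At the pair near Gm17474, the plus strand was methylated in 0.641% of 156 reads in KI and 97.1% of 173 in WT. Its minus strand had 0.529% of 189 in KI and 90% of 220 in WT. In Acer1, which encodes an alkaline ceramidase, the plus strand had 0% of 155 reads in KI and 96.5% of 142 in WT. The strands thus changed alike at these 2 pairs.

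In Efna5, the gene of the ligand ephrin A5, the plus strand had 0% of 83 reads in KI and 82.6% of 115 in WT. In Pot1b, whose product binds the single-stranded end of telomeres, the minus strand had 1.28% of 78 in KI and 99.03% of 103 in WT. This pair lies 616 kb before the Uhrf1 start, inside the gap without one-sided CpGs. In 2 of the 6 pairs the strands differed. In Vmn2r118, a vomeronasal receptor gene, the minus strand had 0% of 174 reads in KI and 71.1% of 149 in WT, but the plus strand had 0 reads in KI and 200 in WT. At the pair near 2610034M16Rik the minus strand had 0.833% of 120 reads in KI and 86.3% of 146 in WT, while the plus strand kept 55.6% in KI against 77.8% in WT.

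CpGs close to the 10 pairs changed less on average. The pairs had been chosen for a large fall and their neighbours had not, so a smaller mean change beside them follows from that choice. The 73 other cytosines within 100 bases with at least 20 reads in both libraries changed by a median over the pairs of -3.52 points. Around the Pot1b pair 14 of them averaged 88.1% in KI and 86.4% in WT, and around the Acer1 pair 2 averaged 45.1% in KI and 48.9% in WT. Larger mean changes, -15.6 points near Gm17474 and -21.3 points around the St6gal2 pair, occurred beside 3 of the pairs, the third being Vmn2r118 with -18.6 points at 1 cytosine. Single neighbours varied more than these means, with changes of -46.2 to 40.2 points around the Dennd1c pair and of -58.1 to 0.13 points near Gm17474. At 3 pairs, those in Acer1, Efna5 and Pot1b, each neighbour changed by under 10 points.

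**Figure D3:**
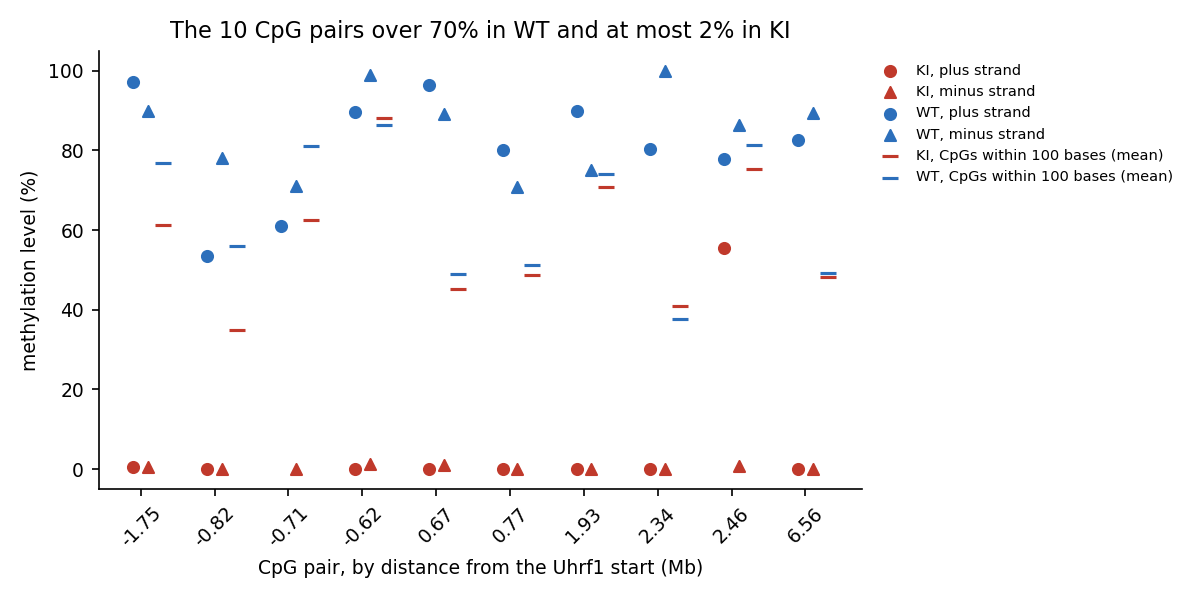
Methylation level (%) of both strands of the 10 CpG pairs over 70% in WT and at most 2% in KI on at least 1 strand (circles, plus strand, and triangles, minus strand, with KI in red and WT in blue), ordered by distance in Mb from the Uhrf1 start, with short bars for the mean of other CpGs within 100 bases. KI levels of the 16 CpGs reach at most 1.28%, while the mean of the neighbours in KI is at most 21.3 points below that in WT. The pairs were chosen by these levels and the neighbours were not.

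Losses of more than 60 points were then mapped along the region as a description, the limit chosen after seeing the data. Of CpGs over 70% in WT with at least 20 reads in both, 50 of 8140 had lost more than 60 points in KI, 0.614%, against 0.0184% on the other autosomes and 0.0646% on chromosome 17 outside 41 to 65 Mb. From 45 to 53.5 Mb there were 31, with KI levels of 4.03% to 35.7% and a median of 20.4%, and 0 of them at or under 2%. From 53.5 to 64 Mb there were 19, with a median of 0% in KI, and 16 of them at or under 2%. Of CpGs over 70% in WT, the shares that had lost so much were 0.645% from 45 to 53.5 Mb and 0.629% from 53.5 to 64 Mb. The second share pools unlike stretches. It was 0.806% from 53.5 to 59 Mb (17 of 2109), 0 of 632 from 59 to 62.5 Mb, and 0.719% from 62.5 to 64 Mb (2 of 278). The levels left in KI differed between the 2 sides of 53.5 Mb, a border that had been set from the coverage.

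**Figure D4:**
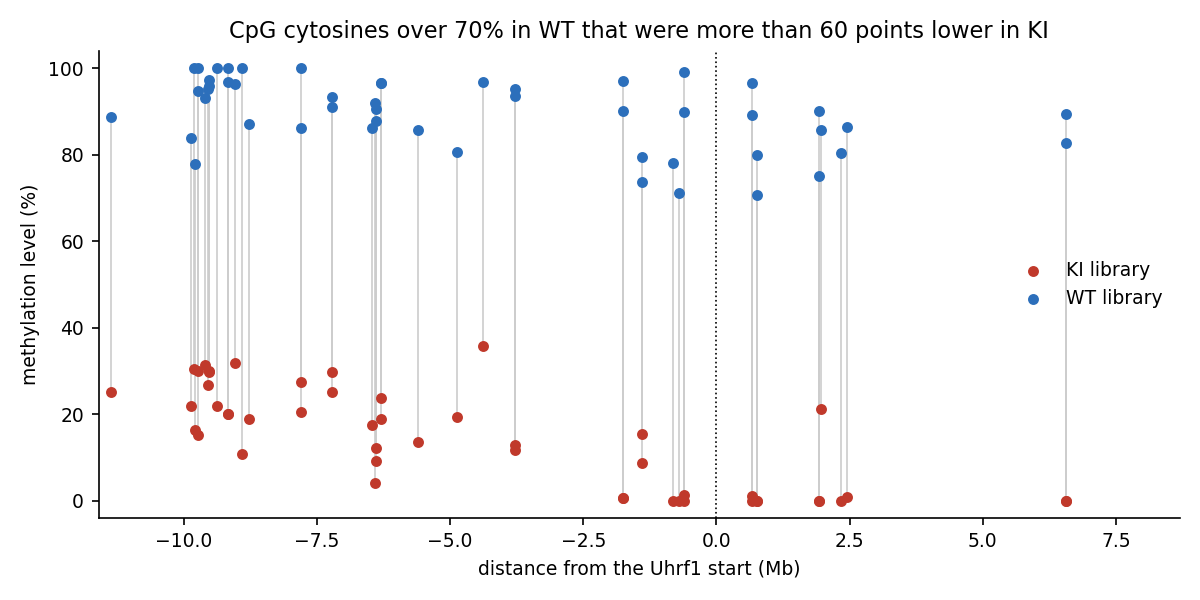
Methylation level (%) in KI (red) and WT (blue) of the 50 CpG cytosines over 70% in WT that were more than 60 points lower in KI, by distance in Mb from the Uhrf1 start (dotted line), a grey line joining the 2 values of a CpG. To the left of about -3 Mb the KI levels lie between 4.03% and 35.7%, and to the right 16 of 19 lie at or under 2%.

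Whole restriction fragments were examined by cutting the mm9 sequence at CCGG. Counting CpGs outside the sites, 9 fragments were read in KI with no read in WT, 21 in WT with no read in KI, and 1618 in both. The KI-only fragments had a median of 467 bases, and 2 of 9 were within 40 to 300 bases. The WT-only fragments had a median of 171 bases, against 177 for those read in both, and all 21 were within that range. By CpG, 80.6% of the 129 KI-only CpGs outside CCGG lay in reference fragments over 300 bases, against 0% of 209 WT-only CpGs and 2.05% of 10,605 read in both. Their median distance to the nearest CCGG of the reference was 102 bases, against 36 for WT-only CpGs and 41 for CpGs read in both. WT-only CpGs were spread over 40 fragments, which together had 3493 reads of summed coverage in KI and 25,170 in WT, and where KI had any read at their CpGs with at least 20 reads in WT, its median was 5 reads. Long KI-only fragments were not particular to the region. On the rest of chromosome 17, 9 KI-only fragments had a median of 946 bases, and 0 were within 40 to 300 bases.

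**Figure D5:**
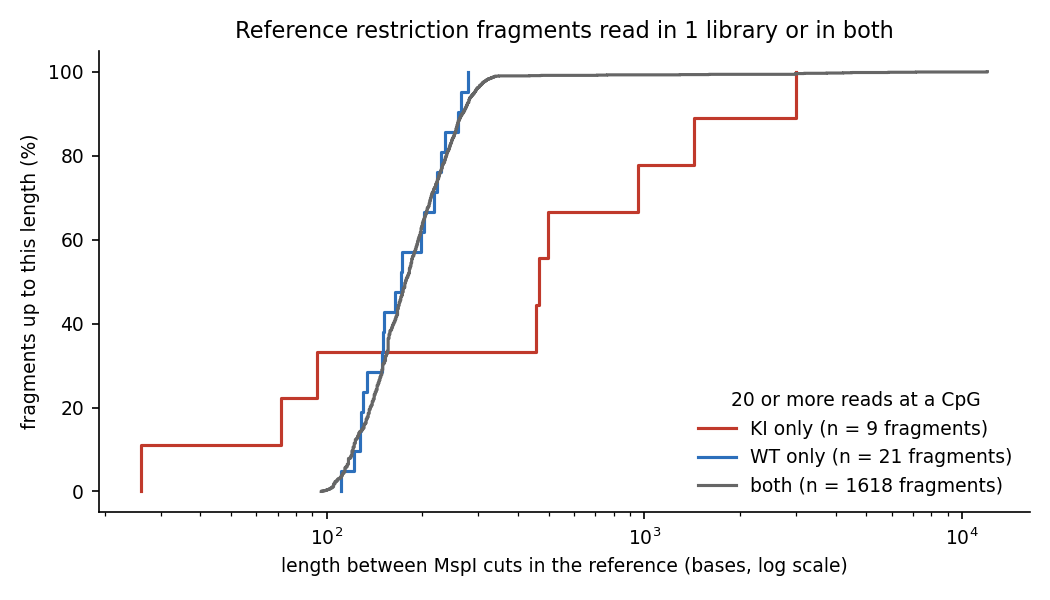
Cumulative share (%) of MspI fragments of the mm9 sequence up to a length in bases (log scale), for those with at least 20 reads at a CpG in KI and none in WT (red, n = 9), in WT and none in KI (blue, n = 21) and in both (grey, n = 1618). The KI-only curve has its median at 467 bases, while the WT-only curve, at 171, follows that of fragments read in both, at 177.

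Of the 222 genes of the region, 22 had KI-only CpGs in the gene or the kb before its start, 21 had WT-only CpGs, and 6 had both. KI-only CpGs were most frequent at Crb3, an apical polarity gene, with 20, and AI661453, with 18, where they had a median of 136 reads and 81.0% methylation. The lincRNA Gm16736 had 14, which are the same CpGs as the 8 of Ptk7, the 4 of Pex6 and the 2 of Ppp2r5d. Ttbk1 had 8, which lie outside Gm16736. The kinesin gene Kif6 had 9, and Gm88, Unc5cl and Pex6, a peroxisomal import ATPase gene, 4 each, before Tspo2 and Acsbg2 with 3. Except for Crb3 and Acsbg2 all of these lie before 51 Mb.

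The sialyltransferase gene St6gal2 had the most WT-only CpGs, 74, of which 69 lay within 1 kb of its start and were 0.858% methylated in WT. Its other 36 shared CpGs there were at 0.70% in KI and 1.06% in WT. Sgol1, whose product protects centromeric cohesion, had 18, all near its start. Safb, which encodes a nuclear matrix and RNA binding protein, had 14, as did Efna5, followed by Cntnap5c, a neurexin family gene, with 13, Dennd1c, an exchange factor for Rab GTPases, with 12, Tmem146 with 10, Vmn2r118 with 9, and the acyl-CoA synthetase gene Acsbg2 and the receptor phosphatase gene Ptprs with 8 each.

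Promoters, taken as 1 kb on both sides of a gene start with at least 5 shared CpGs, mostly changed little. Of 150 promoters 98 changed by at most 1 point and 105 were under 10% in WT, with a median change of -0.0228 points over the 150. Called CpGs were found at 6 promoters, lower at Crip3, Cnpy3, Prph2, Gm15556 and Dazl and higher at Ptk7 (the first 4 named after their values were seen). The Uhrf1 promoter averaged 1.91% in KI and 3.15% in WT over 108 CpGs, a change of -1.24 points with a counting error of 0.51 and 0 calls. The change was -0.313 points with at least 10 reads in both libraries and -0.0823 points with at least 20, so its size depended on the read minimum. That of Kdm4b, an H3K9 demethylase gene next to it, averaged 0.10% in KI and 0.31% in WT. Ptprs was at 20.6% in KI and 20.4% in WT, and Chaf1a, which encodes a subunit of the chromatin assembly factor, at 0% in both. The germ cell gene Dazl averaged 48.5% in KI and 50.6% in WT over 123 CpGs, with 1 lower call.

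Ptk7, which encodes a receptor-like pseudokinase of planar cell polarity signalling, had the highest promoter gain of the 150. Its 85 CpGs averaged 35.9% in KI and 13.5% in WT, a change of 22.3 points with a counting error of 1.03. The 26 called CpGs spanned 1010 bases and ranged from 29.2% to 75.6% in KI and from 2.59% to 38.8% in WT. The 59 not called changed by a mean of 17.7 points, so the gain ran across the promoter. Median reads per CpG were 63 in KI and 48 in WT, and 0 of the 85 were depleted in either library. Guca1b, a retinal guanylate cyclase activator gene, was at 64.7% in KI and 52.1% in WT over 10 CpGs, with 0 calls, and the neighbouring Guca1a was the lowest, at 30% in KI and 51.9% in WT over 5 CpGs, also with 0 calls, and is named after its value was seen.

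Genes were also read as lists. Of 13 chromatin and replication genes, all in the region, 1 (Kat2b) had KI-only CpGs and 4 (Kat2b, Safb, Safb2 and Sgol1) had WT-only CpGs, beside 22 and 21 of all 222 genes. The 4 WT-only CpGs of Safb2 are also counted for Safb, whose start lies next to its own. In this list 12 promoters had a median change of -0.0393 points with 0 called CpGs. All 12 were under 10% in WT. Of 12 liver metabolism and plasma protein genes, 2 (Pex6 and Acsbg2) had KI-only and 2 (Slc25a23 and Acsbg2) had WT-only CpGs, and 7 promoters had a median change of 0.0835 points with 0 calls. The lowest was Gnmt, the liver glycine methyltransferase gene, at 10.1% in KI and 14.6% in WT. Of 11 immune genes, 0 had one-sided CpGs, and 6 promoters had a median of -0.244 points with 0 calls. Of 10 signalling and transcription genes 9 were found by symbol, 1 (Ptk7) had KI-only CpGs, and 9 promoters had a median of 0.0743 points, with higher calls at Ptk7 only. These medians stand beside -0.0228 points for all 150 promoters.

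The tissue was checked at promoters of hepatocyte genes, of which 4 were measured, without a test. Apob was at 31.1% in KI and 43.7% in WT, Fgb at 26.0% in KI and 39.6% in WT, F2 at 29.1% in KI and 33.9% in WT, and Hnf4a at 45.2% in KI and 56.7% in WT. Promoters of genes of other cell types overlapped these levels, from the epithelial gene Epcam at 0.851% in KI and 0.428% in WT to the endothelial gene Cdh5 at 83.3% in KI and 76.7% in WT, with the T cell gene Cd3e at 48.5% in KI and 65.3% in WT. Alb, Apoa1, Ttr, Serpina1a and Cyp2e1 had 0 shared CpGs at their starts, and the measured levels did not separate hepatocyte genes from the others. Coverage summed over listed CpGs was 173,109,895 in KI and 192,144,002 in WT, and the median over the region's shared CpGs was 37 reads in KI and 40 in WT. Stretches with one-sided CpGs were not unique to chromosome 17: chromosome 18 had 730 KI-only and 0 WT-only CpGs with 20 marked steps, and chromosome 3 had 453 KI-only and 10 WT-only CpGs with 19. On both, KI-only CpGs outnumbered WT-only CpGs, as from 45 to 51 Mb here. So they did on chromosome 12, with 103 KI-only and 11 WT-only CpGs and 2 marked steps, the higher at 35.3%. WT-only CpGs outnumbered KI-only CpGs, as from 53.5 to 64 Mb here, on chromosome 9, with 3 KI-only and 185 WT-only CpGs and 2 marked steps, on chromosome 8, with 2 KI-only and 118 WT-only CpGs and 1 marked step, and on chromosome 19, with 0 KI-only and 53 WT-only CpGs and 2 marked steps, the higher at 13.0%.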

How the data were processed

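Liver DNA pooled from 3 male mice per genotype was measured by RRBS, 1 library each for KI and WT. The authors aligned reads to mm9 (Bismark 0.12.20 in the submitters' notes) and deposited, per CpG cytosine, a count of reads and the percent methylated and unmethylated. Methylated reads were recovered from count and percent, and came out whole within the rounding at 100% of cytosines. Strands and CCGG sites were read from the mm9 sequence, and genes from GENCODE for that build. CpGs with at least 20 reads in 1 library and none in the other were counted in 500 kb steps, and their share was compared with the steps of the other autosomes, where a step held at least 50 CpGs with at least 20 reads in either library. Single unmarked steps between marked ones were bridged. Methylation was compared at CpGs with at least 5 reads in both by Fisher's exact test with Benjamini-Hochberg adjustment over the series. Named genes were those with the most one-sided CpGs, 7 chosen promoters and the listed genes. Members, lists and limits were chosen with earlier results of these data known. The procedures were tested on simulated data. For the step search all one-sided CpGs were first removed and an even block was planted, so a block with gaps, as around Uhrf1, was not tested. One marker gene of another cell type is not reported here. Trimming and duplicate handling are not given in the sources used here. Tools were matplotlib 3.10.9, numba 0.67.0, numpy 2.4.6, pandas 2.3.3, Python 3.11.15 and scipy 1.17.1.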

Additional observations from a re-analysis of the deposited data

How the results depend on the processing

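Of 56 alternatives, 37 left a count within 1.5 times its value, the mean change within its counting interval or the run length within 1 step, and 19 did not. The run of steps around Uhrf1, 0 Mb as reported, was 5.5 Mb with at least 50 reads, with the 95th percentile and with WT-only CpGs alone, and 6 Mb with steps of 1 Mb, in each case by bridging the unmarked step of Uhrf1. Without bridging the run from 53.5 to 56 Mb split into 53.5 to 54 and 54.5 to 56 Mb. With at least 50 reads there were 76 KI-only and 154 WT-only CpGs, and 5 whole fragments seen in KI only. With the 2 strands summed there were 71 KI-only and 146 WT-only CpG pairs, 7 marked steps and 10 pairs near zero, each pair then counting once. The 95th percentile was 0%, which marks any step with a one-sided CpG, 24 in all, and the highest step outside chromosomes 3, 17 and 18 marked 0. Without CpGs inside CCGG sites the mean change was -3.20 points. CpGs under 20% in KI and over 70% in WT numbered 33 of 210 in the series, and with at least 10 reads the near-zero CpGs numbered 21 of 40, and at most 5% in KI 17 of 21, so that under these limits such CpGs were also found elsewhere. A stricter ratio left 286 CpGs depleted in KI and 151 in WT, and a ratio under 0.5 gave 1510 and 1108. At 15 named promoters, 54 of 57 alternatives stayed within counting error, and the Uhrf1 promoter with at least 20 reads, at -0.0823 points, did not. These promoter alternatives and that with WT-only CpGs alone were chosen after seeing the data. The causes of these moves were not tested, except where counting pairs once or setting a stricter limit lowers a count by construction. No paired analysis was possible because each genotype is 1 pooled library. With 1 library per genotype, no result here has a replicate check.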
